A study of Mus musculus with 14 samples.

Results

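A set of 10 genes of the Toll-like receptor and interleukin-1 (IL-1) pathway was followed across 12 whole-kidney RNA-seq libraries: Tlr2, Tlr4, Cd14, Myd88, Ticam1, Il1b, Il1rn, Il1r1, Il1r2 and Il1rl1. They were taken by gene symbol, 10 of 23286 genes listed, and all 10 were found in both of the deposited tables, with a table for each genotype. Although the set is built around receptors, it also holds a co-receptor, both main signalling adaptors, a cytokine and its antagonist. The mice were 9 weeks old and had undergone either renal ischemia-reperfusion (IR) or a sham operation 5 h earlier. The 4 groups, of 3 libraries each, were VE-PTPiKO IR, VE-PTPiKO sham, Control IR and Control sham. IR injury is a period of blocked blood flow followed by its return, and sham mice had the surgery alone. VE-PTPiKO is the submitters' name for mice in which VE-PTP, an endothelial phosphatase encoded by Ptprb, is targeted. The labels give neither strain, sex nor the promoter that drives the deletion for these groups, and they do not say that libraries come from separate animals, so the p-values speak only for the spread among these 12 libraries. The comparisons address how injured kidneys change these transcripts and whether the change depends on VE-PTP.

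As background, Toll-like receptors sense microbial products and molecules released by damaged cells. CD14 hands lipid ligands to TLR4 and TLR2, and the receptors signal through the adaptors MyD88 and, for TLR3 and TLR4, TRIF, the product of Ticam1. Signalling through either adaptor reaches NF-kB, which switches on inflammatory genes such as Il1b. IL-1beta then acts through IL1R1, again by way of MyD88, while the antagonist IL1RN and the decoy receptor IL1R2 hold it back. In the kidney, both resident leukocytes and tubule cells are known to carry Toll-like receptors, and TLR2, TLR4 and IL-1 signalling are studied in ischemic kidney injury.

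Upstream sequence is shown for Il1b, Il1rn, Il1r1 and Ticam1, since these passed the test in Control kidneys and RefSeq (GRCm38.p6) starts them at the base the deposited tables give. Each line holds the 250 bases before the start, 5′ to 3′ on the gene's strand, in lower case; capitals mark a match to the AP-1 motif TGANTCA or to the NF-kB motif, both strands searched.
Il1b (chr2:129371140-129371389, minus strand): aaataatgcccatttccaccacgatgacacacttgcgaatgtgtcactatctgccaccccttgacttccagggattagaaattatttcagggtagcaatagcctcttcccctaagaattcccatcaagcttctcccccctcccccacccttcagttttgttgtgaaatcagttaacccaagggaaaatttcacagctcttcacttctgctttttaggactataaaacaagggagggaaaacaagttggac
Il1rn (chr2:24336610-24336859, plus strand): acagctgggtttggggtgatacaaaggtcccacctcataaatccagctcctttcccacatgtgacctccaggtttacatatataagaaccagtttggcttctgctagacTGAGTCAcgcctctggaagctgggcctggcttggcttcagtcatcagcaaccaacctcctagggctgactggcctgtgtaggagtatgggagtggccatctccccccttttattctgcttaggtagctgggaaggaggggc
Il1r1 (chr1:40266336-40266585, plus strand): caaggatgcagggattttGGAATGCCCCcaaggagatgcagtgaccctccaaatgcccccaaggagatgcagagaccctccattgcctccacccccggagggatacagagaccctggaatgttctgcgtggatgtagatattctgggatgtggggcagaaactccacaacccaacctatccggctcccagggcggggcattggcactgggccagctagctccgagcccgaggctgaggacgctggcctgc
Ticam1 (chr17:56276768-56277017, minus strand): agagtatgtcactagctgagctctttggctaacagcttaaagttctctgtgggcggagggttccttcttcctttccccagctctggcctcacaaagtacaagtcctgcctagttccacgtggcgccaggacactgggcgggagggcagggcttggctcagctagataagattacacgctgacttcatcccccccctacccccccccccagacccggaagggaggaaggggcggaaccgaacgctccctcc
The Il1rn window held 1 AP-1 match, beginning 141 bases before the start, and the Il1r1 window held 1 NF-kB match, beginning 232 bases before it. Neither motif's letters were found in the Il1b or Ticam1 window. Over 32851 windows of the same length, 6.75% held an AP-1 match and 7.25% an NF-kB match. RefSeq windows matched 8 of the 10 genes, 7 of them with a start within 100 bases of the tables' start. Outside the 4 shown, the Tlr2 window held 2 overlapping NF-kB matches, beginning 173 and 172 bases before the start, and those of Myd88 and Il1rl1 held no match. A match describes letters only.

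Levels are given as normalised reads, the reads recovered from the deposited values and scaled together over all 12 libraries, so that the separately normalised tables share a scale. Gene-assigned reads per library ran between 15427887 and 21296392. Ptprb, the targeted gene, stood at 1314, 1677 and 2114 normalised reads in VE-PTPiKO IR kidneys and 2068, 2852 and 3049 in VE-PTPiKO sham kidneys, against 2039.7, 2156 and 2721 in Control IR kidneys and 3061, 4363 and 3269 in Control sham kidneys. The genotypes overlapped in IR and not in sham, and the difference passed the test in neither (log2 −0.45, SE 0.20, and −0.43, SE 0.20; limma adjusted p = 1 in both). All 5 kidney tubule genes examined were detected in every group, their sums running between 234744 and 360548 normalised reads. Malat1, a nuclear RNA read here as a sign of RNA quality, took 0.327% to 0.564% of the reads in 9 libraries. It took 1.96% in VE-PTPiKO IR replicate 3, 1.15% in VE-PTPiKO sham replicate 2 and 1.02% in Control sham replicate 2, and results that turn on these libraries are given with and without them.

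In Control kidneys 7 of the 10 genes rose after IR and none fell: Il1rn, Il1r2, Il1b, Cd14, Il1r1, Ticam1 and Tlr4. In VE-PTPiKO kidneys Cd14 alone passed the test, which is limma's on log2(value + 1) with an adjusted p under 0.05 over all genes. The share of all genes called was 2.71% of 16401 in VE-PTPiKO and 11.5% of 16257 in Control, and that called higher in IR was 1.92% and 7.48%. All 3 IR libraries lay above all 3 sham libraries for 6 of the 10 genes in VE-PTPiKO, where 10.6% of genes did so, and for 7 of the 10 in Control, where 15.8% did. The fitted change was above 0 for all 10 genes in both genotypes, with a median log2 fold change of 0.63 in VE-PTPiKO and 0.90 in Control, beside −0.01 over all genes tested in each. The 10 genes were chosen with earlier results of these data known, so their contrast with all genes is description and no independent support. In whole-kidney RNA, a change in the number of cells of a type and a change in RNA per cell cannot be told apart. The fewer calls in VE-PTPiKO do not show a smaller response, and the difference between the genotypes is tested further on.

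**Figure D1:**
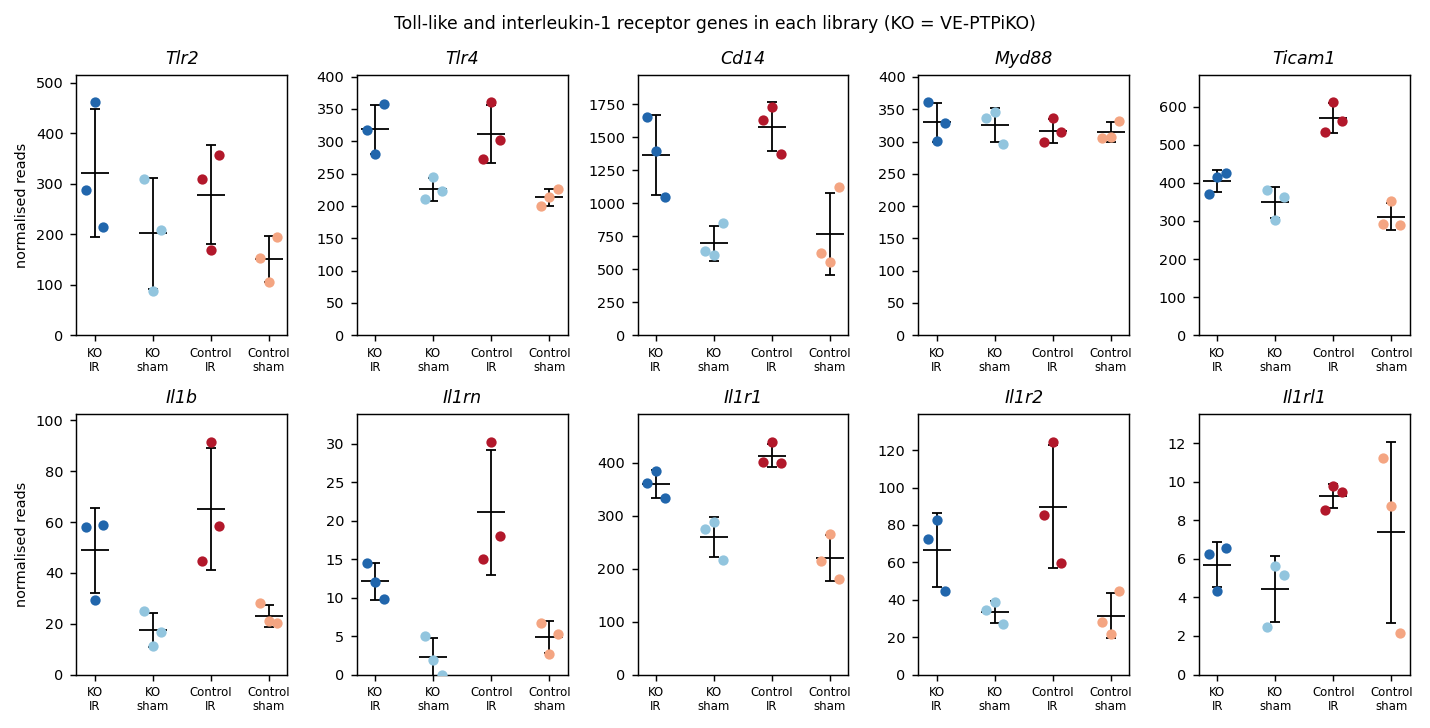
Normalised reads of the 10 genes in each library (points), with group means and SD (lines), for VE-PTPiKO (KO) IR, VE-PTPiKO sham, Control IR and Control sham kidneys, 3 libraries each; vertical axes start at 0 and differ between genes. Ticam1 stood at 533 to 611 in Control IR and at 371 to 426 in VE-PTPiKO IR, while Myd88 stayed between 296 and 360.5 in all 12 libraries.

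Among the pathogen sensors, Tlr4 rose in Control kidneys and Tlr2 passed in neither genotype by limma, and both calls in Control depended on the settings. Tlr4 (chromosome 4, 66827551 to 66846581, mm10) encodes the lipopolysaccharide receptor. Its normalised reads were 317, 281 and 357 in VE-PTPiKO IR kidneys, against 210.2, 244 and 223 in VE-PTPiKO sham kidneys. In Control IR kidneys they were 272, 360.0 and 302, against 200.1, 213 and 227 in Control sham kidneys. The IR libraries lay above the sham libraries in both genotypes, at 1.41-fold in VE-PTPiKO (log2 0.49, SE 0.16; limma adjusted p = 0.185) and 1.45-fold in Control (log2 0.54, SE 0.15; limma adjusted p = 0.0432). The Control call was lost when any 1 of the 6 libraries was left out, with adjusted p between 0.0521 and 0.237, and with the replicate number as a block (adjusted p = 0.0515).

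Tlr2 (chromosome 3, 83836272 to 83841608) encodes the receptor for bacterial lipoproteins. It stood at 289, 461 and 214 normalised reads in VE-PTPiKO IR kidneys, against 309, 88.4 and 209 in VE-PTPiKO sham kidneys. Control IR kidneys had 309.7, 168 and 357, against 154, 105 and 195 in Control sham kidneys. Groups overlapped in both genotypes, and neither change passed (VE-PTPiKO log2 0.77, SE 0.44, limma adjusted p = 0.466; Control log2 0.85, SE 0.29, limma adjusted p = 0.0923). The library highest in Malat1 was the lowest for Tlr2 in 3 of the 4 groups, VE-PTPiKO IR, VE-PTPiKO sham and Control sham, and in Control IR it was the highest. Without these Malat1-high libraries the VE-PTPiKO change was log2 0.52 (adjusted p = 0.277), and without Control sham replicate 2 the Control change was log2 0.61 (adjusted p = 0.218); the part of RNA quality was not tested further. Without Control IR replicate 2, its lowest IR library, the Control change was log2 1.18 and passed (adjusted p = 0.026). On all 6 Control libraries Tlr2 passed by DESeq2 (log2 0.88, adjusted p = 0.0133) and by limma with the replicate number as a block (log2 0.85, adjusted p = 0.00734).

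Cd14, the co-receptor gene (chromosome 18, 36725064 to 36726815), was the one member past the threshold in both genotypes. It stood at 1651, 1393 and 1048 normalised reads in VE-PTPiKO IR kidneys, against 639, 605 and 847 in VE-PTPiKO sham kidneys. Control IR kidneys held 1629, 1732 and 1374, against 622, 557 and 1122 in Control sham kidneys. Each IR library lay above each sham library of its genotype, by 1.95-fold in VE-PTPiKO (log2 0.96, SE 0.20; limma adjusted p = 0.0418) and 2.16-fold in Control (log2 1.11, SE 0.22; limma adjusted p = 0.00881). The VE-PTPiKO call was lost without any 1 of sham replicates 1, 2 and 3 or IR replicates 1 and 2 (adjusted p between 0.0804 and 0.179), while the Control call held without each library in turn.

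The adaptors parted. Ticam1 (chromosome 17, 56269462 to 56276767) encodes TRIF, which carries TLR3 and TLR4 signals to interferon factors and NF-kB. Its normalised reads were 371, 415 and 426 in VE-PTPiKO IR kidneys, against 379.8, 303 and 362 in VE-PTPiKO sham kidneys. Control IR kidneys had 533, 611 and 563, against 292, 351 and 289 in Control sham kidneys. The groups overlapped in VE-PTPiKO, with a log2 change of 0.22 (SE 0.16; limma adjusted p = 0.574), and stood well apart in Control, with a 1.84-fold rise (log2 0.88, SE 0.13; limma adjusted p = 0.00149). The Control call held under each alternative run, at log2 0.83 to 0.97.

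Myd88 (chromosome 9, 119335988 to 119340040) encodes the adaptor shared by IL-1 receptors and by both Toll-like receptors of the set. It stood at 360.5, 300.3 and 329 normalised reads in VE-PTPiKO IR kidneys, against 336, 345 and 296 in VE-PTPiKO sham kidneys. Control IR kidneys had 299, 336 and 315, against 306, 307 and 332 in Control sham kidneys. All groups overlapped, and the change was log2 0.02 in VE-PTPiKO (95% interval −0.33 to 0.37; limma adjusted p = 0.971) and 0.01 in Control (−0.27 to 0.29; limma adjusted p = 0.975). These intervals leave out a 1.84-fold change of the size Ticam1 showed in Control. Myd88 shares 290 exon bases, 11.3% of its exons, with Acaa1a on the opposite strand, and no source used here says whether counting used strand, so its level is uncertain to that extent.

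Of the cytokine and its antagonist, both rose in Control kidneys from low levels. Il1b (chromosome 2, 129364578 to 129371139) encodes IL-1beta. It stood at 58.2, 29.4 and 58.9 normalised reads in VE-PTPiKO IR kidneys, against 24.8, 11.3 and 16.6 in VE-PTPiKO sham kidneys. The Control IR libraries held 44.9, 91.6 and 58.6, against 28.1, 21 and 20.2 in Control sham kidneys. The IR libraries lay above the sham libraries in both genotypes with closely similar estimates, 2.69-fold in VE-PTPiKO (log2 1.43, SE 0.40; limma adjusted p = 0.112) and 2.66-fold in Control (log2 1.41, SE 0.31; limma adjusted p = 0.0136). Without the Malat1-high libraries the VE-PTPiKO change was log2 0.995 (limma adjusted p = 0.199), so the closeness depends on which libraries are included. Without Control IR replicate 2, the highest library, the Control change was log2 1.14 (adjusted p = 0.0891), and without Control sham replicate 3 it was log2 1.33 (adjusted p = 0.0504). Il1b shares 25 exon bases, 1.3% of its exons, with the antisense gene Il1bos.

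Il1rn (chromosome 2, 24336860 to 24351491) encodes the IL-1 receptor antagonist, which occupies IL1R1 without signalling. It lies 105.0 Mb from Il1b on the same chromosome. Its normalised reads were 14.5, 12 and 9.81 in VE-PTPiKO IR kidneys, against 4.96, 1.88 and 0 in VE-PTPiKO sham kidneys. In Control IR kidneys there were 15, 30.2 and 18, against 6.74, 2.62 and 5.32 in Control sham kidneys. These rest on few reads, 34 in VE-PTPiKO IR and 8 in VE-PTPiKO sham over all 3 libraries, and 67 in Control IR and 14 in Control sham. IR libraries were higher than sham libraries throughout, by 5.02-fold in VE-PTPiKO (log2 2.33, SE 0.66; limma adjusted p = 0.118) and 3.77-fold in Control (log2 1.92, SE 0.44; limma adjusted p = 0.0175), the largest fitted changes of the 10 genes in each genotype on the log2(value + 1) scale. The Control change was log2 1.63 without Control IR replicate 2 (adjusted p = 0.111). The authors' deposited estimates for Il1rn are smaller, log2 0.86 (SE 0.30) in VE-PTPiKO, with no adjusted p, and 1.24 (SE 0.34) in Control. By those, Il1b (0.99) and Cd14 (0.88) stood above Il1rn in VE-PTPiKO, and Il1r2 (1.23) was level with it in Control.

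The receptors for IL-1 rose in Control kidneys, the signalling and the decoy form alike. Il1r1 (chromosome 1, 40266586 to 40316177) encodes the signalling receptor. It stood at 361, 384 and 332 normalised reads in VE-PTPiKO IR kidneys, against 274, 288 and 216 in VE-PTPiKO sham kidneys. Among Control IR kidneys it was at 400.5, 439 and 399.9, against 214, 266 and 181 in Control sham kidneys. No IR library overlapped a sham library of its genotype, at 1.39-fold in VE-PTPiKO (log2 0.48, SE 0.17; limma adjusted p = 0.212) and 1.90-fold in Control (log2 0.93, SE 0.16; limma adjusted p = 0.0036). In Control it passed under each alternative run.

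Il1r2 (chromosome 1, 40084768 to 40125226) encodes the decoy receptor, which binds IL-1 but lacks the signalling domain. Its normalised reads were 72.7, 82.7 and 44.7 in VE-PTPiKO IR kidneys, against 34.8, 38.5 and 26.9 in VE-PTPiKO sham kidneys. Control IR kidneys had 85.4, 124 and 59.6, against 28.1, 21.8 and 44.7 in Control sham kidneys. IR libraries again stood above sham libraries in both genotypes, by 1.93-fold in VE-PTPiKO (log2 0.95, SE 0.30; limma adjusted p = 0.168) and 2.79-fold in Control (log2 1.48, SE 0.34; limma adjusted p = 0.0161). Without Control IR replicate 2 the Control change was log2 1.22 (adjusted p = 0.0975). Without the Malat1-high libraries the VE-PTPiKO change was log2 1.32 and passed (adjusted p = 0.04), as it did without VE-PTPiKO IR replicate 3 alone (log2 1.21, adjusted p = 0.0263).

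Il1rl1 (chromosome 1, 40439629 to 40465414) encodes ST2, the receptor for IL-33, and was close to the floor of detection. Its reads numbered 6, 4 and 6 in VE-PTPiKO IR libraries, against 3, 6 and 5 in VE-PTPiKO sham libraries. Control IR libraries had 8, 11 and 10 reads, against 10, 10 and 2 in Control sham libraries. The groups overlapped, and neither change passed (VE-PTPiKO log2 0.34, SE 0.47, limma adjusted p = 0.807; Control log2 0.51, SE 0.53, limma adjusted p = 0.631), with 95% intervals of −0.72 to 1.41 and −0.66 to 1.68. Among the 8 markers fixed for mast cells, type 2 innate lymphoid cells and regulatory T cells, which are known to carry ST2, the mast cell genes Tpsb2 and Fcer1a had 0 reads in all 12 libraries, and Mcpt4 and Cpa3 had at most 2 in any. Kit, the stem cell factor receptor of mast cells, had 139 to 401 reads per library and Gata3, a factor of type 2 innate lymphoid cells that kidney epithelium also expresses, had 107 to 322. Neither passed the test: Kit was at log2 −0.69 in VE-PTPiKO (limma adjusted p = 0.208) and −0.63 in Control (0.101), and Gata3 at −0.61 in VE-PTPiKO (0.252) and −0.43 in Control (0.125). Foxp3, the factor of regulatory T cells, had 0 to 17 reads. The summed level of that list, 2348 to 3557 normalised reads in VE-PTPiKO IR, 3481 to 6187 in VE-PTPiKO sham, 3013 to 3313 in Control IR and 3612 to 4932 in Control sham, came mostly from Rora, at 1999.7 to 5585 normalised reads.

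**Figure D2:**
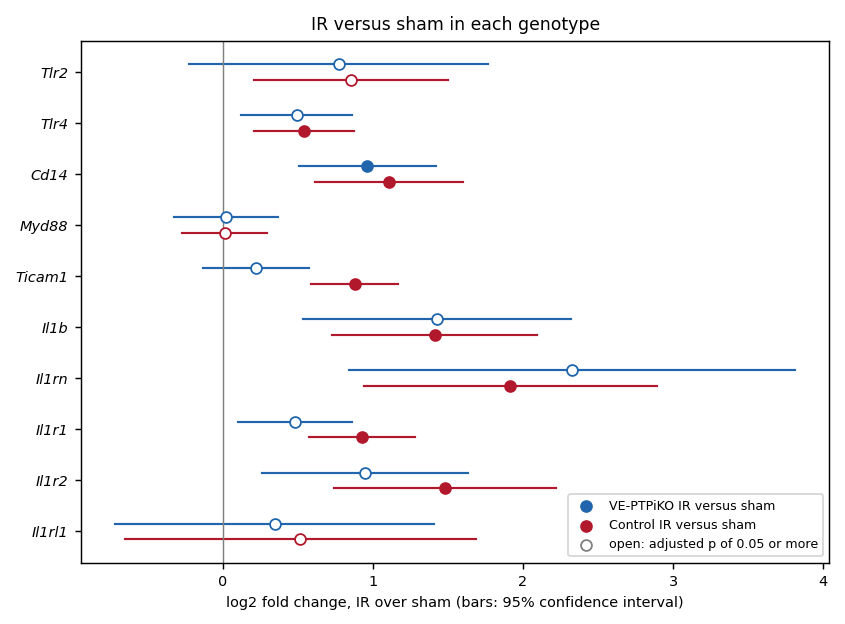
Log2 fold change of IR over sham (points) with 95% confidence intervals (bars) for the 10 genes, VE-PTPiKO (blue) above Control (red); filled points have a limma adjusted p under 0.05. The Control estimates of 7 genes are filled, against Cd14 alone in VE-PTPiKO, and the intervals of the 2 genotypes overlap for every gene except Ticam1, whose intervals run from −0.13 to 0.57 and from 0.59 to 1.17.

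The authors' deposited tables give their own statistics for the same comparisons, on fewer genes. In the authors' deposited table for VE-PTPiKO, 8 of the 10 genes have an adjusted p and 5 are under 0.05: Cd14 (log2 0.88, adjusted p = 4.03e-05), Il1b (0.99, 0.00736), Il1r2 (0.77, 0.0252), Tlr4 (0.46, 0.0259) and Il1r1 (0.44, 0.0443). In the authors' deposited table for Control, 9 have an adjusted p and 8 are under 0.05, all but Myd88, with log2 fold changes between 0.52 for Tlr4 and 1.24 for Il1rn. The share of all genes under 0.05 there is 11.3% of 13732 in VE-PTPiKO and 21.1% of 13664 in Control. Ticam1 stands at log2 0.20 (adjusted p = 0.461) in the authors' deposited table for VE-PTPiKO and at 0.84 (adjusted p = 2.43e-09) in that for Control.

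Whether VE-PTPiKO kidneys responded differently was tested as the difference between both IR changes over all 12 libraries. None of the 10 genes passed, nor did any of the 16339 genes tested (0%); edgeR and DESeq2 also called 0 genes. At an unadjusted p under 0.05 there were 432 genes by limma, 387 by edgeR and 387 by DESeq2. Each count is a smaller share of the 16339 genes than the 0.05 such a threshold lets through where nothing differs. Ticam1 was the one member among those of limma. Its estimated IR change was smaller in VE-PTPiKO by 0.66 on the log2 scale (log2 −0.66, SE 0.19, 95% interval −1.06 to −0.25; limma adjusted p = 0.999), and the estimate lay between −0.89 and −0.59 under the alternatives run. For Il1r1 the difference was log2 −0.44 (−0.93 to 0.04) and for Il1r2 −0.53 (−1.56 to 0.50). Il1b, at 0.02 (−1.10 to 1.13), and Cd14, at −0.14 (−0.88 to 0.59), had estimates nearer 0, with wide intervals. Only for Tlr4 (−0.05, −0.49 to 0.40) and Myd88 (0.01, −0.37 to 0.39) did the interval stay within 0.5 of 0 on the log2 scale.

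Between injured kidneys of the genotypes, 0 of the 10 genes and 0% of 16339 passed (709 genes at an unadjusted p under 0.05 by limma, 670 by edgeR and 657 by DESeq2; edgeR called 0 and DESeq2 1). All 3 VE-PTPiKO IR libraries lay below all 3 Control IR libraries for 4 of the 10 genes, Ticam1, Il1rn, Il1r1 and Il1rl1, where 9.16% of all genes had groups that did not overlap in either direction. Ticam1 was 1.41-fold lower in VE-PTPiKO (404 ± 29.1 against 569 ± 39.2 normalised reads in Control, SD, n = 3 each), with a log2 difference of −0.49 (SE 0.13, 95% interval −0.78 to −0.21). The log2 difference was −0.71 for Il1rn (−1.94 to 0.53), −0.20 for Il1r1 (−0.55 to 0.14) and −0.63 for Il1rl1 (−1.70 to 0.45). Each of these had a limma adjusted p of 1. In sham kidneys, too, 0 of the 10 genes and 0% of all genes passed (267 genes at an unadjusted p under 0.05 by limma, 254 by edgeR and 216 by DESeq2; edgeR called 0 and DESeq2 1). In both contrasts the counts at an unadjusted p under 0.05 were also a smaller share of the 16339 genes than 0.05. No member separated the sham groups, against 4.87% of genes that did. Ticam1 averaged 348 ± 40.4 normalised reads in VE-PTPiKO sham kidneys and 311 ± 35.1 in Control sham kidneys (SD, n = 3 each; log2 0.16, −0.12 to 0.45). Il1rn had the widest sham difference, log2 −1.12 (−2.36 to 0.12), on 8 reads in VE-PTPiKO and 14 in Control.

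Set against each other per kilobase of principal transcript, the genes kept nearly the same order in all groups. Cd14 was the highest everywhere, at 831 ± 184 normalised reads per kilobase in VE-PTPiKO IR, 425 ± 79.9 in VE-PTPiKO sham, 962 ± 112 in Control IR and 467 ± 188 in Control sham (SD, n = 3), and did not overlap the next gene in any group. Myd88 came next in VE-PTPiKO IR (168 ± 15.4), VE-PTPiKO sham (166 ± 13.3) and Control sham (161 ± 7.66), followed by Ticam1 (135 ± 9.74, 116 ± 13.5 and 104 ± 11.8). In Control IR the order of the adaptors was reversed, with Ticam1 at 190.2 ± 13.1 and Myd88 at 162 ± 9.48 normalised reads per kilobase, and the 3 libraries of each gene did not overlap in any group. Myd88 shares 290 exon bases with Acaa1a on the opposite strand, and whether counting used strand is not known. Its level, and so the order of the adaptors, is uncertain to that extent. Normalised reads per kilobase of Tlr2 and Tlr4 came after those of the adaptors and overlapped each other in every group. Il1r1, Il1r2 and Il1b were next in that order, and neighbours among them overlapped in each IR group. Il1rn, at 4.89 ± 0.96 in VE-PTPiKO IR and 8.51 ± 3.27 in Control IR, and Il1rl1, at 1.08 ± 0.22 and 1.75 ± 0.12, were the lowest.

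Ratios per kilobase within a library show how inhibitors stood to their partners. The ratio of Il1rn to Il1b was 0.137, 0.223 and 0.0914 in VE-PTPiKO IR, against 0.11, 0.0914 and 0 in VE-PTPiKO sham; in Control IR it was 0.183, 0.181 and 0.168, against 0.132, 0.0685 and 0.144 in Control sham. The antagonist's transcript thus stood at or below 0.223 of that of the cytokine in every library. The ratio of the decoy Il1r2 to Il1r1 was 0.825, 0.883 and 0.551 in VE-PTPiKO IR, against 0.52, 0.549 and 0.51 in VE-PTPiKO sham. Control IR libraries were at 0.875, 1.16 and 0.611 for this ratio, against 0.54, 0.337 and 1.01 in Control sham. The sham ratios of Il1rn to Il1b rest on few Il1rn reads, 6, 2 and 0 in VE-PTPiKO and 6, 3 and 5 in Control. A read more or less moves them, so the order of libraries for this ratio is uncertain. For Il1rn to Il1b, IR and sham overlapped in VE-PTPiKO, while in Control all 3 IR libraries lay above all 3 sham libraries. For Il1r2 to Il1r1 it was the other way about, with IR above sham in VE-PTPiKO, by a narrow gap of 0.551 against 0.549, and an overlap in Control. These ratios were not tested.

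Il1r2, Il1r1 and Il1rl1 sit together on chromosome 1, within 381 kb. The stretch reaching 100000 bases beyond them held 8 genes of the tables. In Control, Il1r2, Il1r1 and the kinase gene Map4k4 at its edge rose, the last named after its values were seen (log2 0.38, SE 0.11; limma adjusted p = 0.0498). In VE-PTPiKO none of the genes tested there passed. The IL-36 receptor gene Il1rl2, which lies between Il1r1 and Il1rl1, was at log2 −0.23 in VE-PTPiKO (SE 0.35, limma adjusted p = 0.827) and 0.69 in Control (SE 0.32, limma adjusted p = 0.214). The IL-18 receptor genes Il18r1 and Il18rap were at 0.30 and 0.31 in VE-PTPiKO and −0.23 and −0.16 in Control.

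Further genes of the pathway, 64 in all, were read by role from a list also chosen with earlier results of these data known. In VE-PTPiKO 5 of 59 tested rose and none fell, 8.47% called beside 2.71% of all genes, with a median log2 fold change of 0.04. In Control 8 of 62 rose and 1 fell, 14.5% called beside 11.5% of all genes, with a median of 0.06. The median over all genes was −0.01 in each, so in both genotypes the middle of the list lay close to that of all genes, and in Control its share called did too. The genes that passed in both genotypes were transcription factors and feedback regulators, though not all genes of these roles passed. Of 5 factors, 2 rose in VE-PTPiKO and 3 in Control, and of 3 feedback genes 2 rose in each genotype. Rela, an NF-kB subunit, averaged 1440.4 ± 147 normalised reads in VE-PTPiKO IR and 924 ± 39 in VE-PTPiKO sham (log2 0.64, SE 0.13; limma adjusted p = 0.0378), and 1817 ± 156 in Control IR and 920.0 ± 39.7 in Control sham (log2 0.98, SE 0.11; limma adjusted p = 0.000197). Irf5, an interferon factor downstream of MyD88, rose 2.17-fold in VE-PTPiKO (adjusted p = 0.0179) and 1.80-fold in Control (adjusted p = 0.00545). Tnfaip3, which encodes the NF-kB brake A20, averaged 428 ± 53.5 normalised reads in VE-PTPiKO IR and 183 ± 13.7 in VE-PTPiKO sham (log2 1.22, SE 0.16; limma adjusted p = 0.00628), and 467 ± 43 in Control IR and 186 ± 46.5 in Control sham (log2 1.35, SE 0.19; limma adjusted p = 0.000888). Nfkbiz, an atypical IkB protein induced by Toll-like receptors and IL-1, rose 2.27-fold in VE-PTPiKO (adjusted p = 0.0237) and 2.13-fold in Control (adjusted p = 0.00445). In VE-PTPiKO the call held without each library in turn for Tnfaip3, and was lost without any 1 of 5 libraries for Rela (adjusted p between 0.1 and 0.176), of 4 for Irf5 (0.0804 to 0.0929) and of 3 for Nfkbiz (0.0666 to 0.14); in Control all 4 calls held.

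The counts by role are small and are read beside the share of all genes that rose, 1.92% in VE-PTPiKO and 7.48% in Control. By role, 0 of 10 further Toll-like receptors passed in VE-PTPiKO and 2 of 10 rose in Control. Tlr12, an endosomal receptor for profilin in mice, was at 182, 524 and 417 normalised reads in VE-PTPiKO IR, against 174, 186 and 143 in VE-PTPiKO sham (log2 1.03, SE 0.35; limma adjusted p = 0.193). It was at 579.9, 395 and 393 in Control IR, against 255, 172 and 203 in Control sham (log2 1.11, SE 0.20; limma adjusted p = 0.00396). The Tlr12 change in VE-PTPiKO passed by DESeq2 (adjusted p = 0.0174) and by limma without VE-PTPiKO IR replicate 1 (adjusted p = 0.0203). Tlr13, a receptor for bacterial ribosomal RNA, rose 1.81-fold in Control (adjusted p = 0.0234), beside log2 0.62 in VE-PTPiKO (adjusted p = 0.287). The Tlr13 call was lost without any 1 Control library but sham replicate 2 (adjusted p between 0.0526 and 0.143). Lbp, which encodes the lipopolysaccharide-binding protein, was the 1 gene that fell, in Control, by 0.58 on the log2 scale (SE 0.17; limma adjusted p = 0.0476), with log2 −0.36 in VE-PTPiKO (adjusted p = 0.559). This call did not hold in 10 of the 15 alternatives run, among them each of the 6 that left out 1 library (adjusted p between 0.0549 and 0.179 over the 10). Of 18 kinases and ligases, 0 passed in VE-PTPiKO and Traf3 alone rose in Control, at 1.57-fold (adjusted p = 0.00586), with log2 0.62 in VE-PTPiKO (adjusted p = 0.139). Traf3 did pass in VE-PTPiKO by DESeq2 (adjusted p = 0.0429) and by limma in a single model of all libraries (adjusted p = 0.0316). Among 5 inflammasome genes Casp4, a caspase that senses intracellular lipopolysaccharide, rose 2.35-fold in VE-PTPiKO (adjusted p = 0.0264), with log2 0.98 in Control (adjusted p = 0.053). The VE-PTPiKO call of Casp4 was lost without any 1 library but IR replicate 3 (adjusted p between 0.0549 and 0.124), and in Control it passed under 5 of the 15 alternatives. Nfkb1 rose 1.38-fold in Control (adjusted p = 0.0209), with log2 0.14 in VE-PTPiKO (adjusted p = 0.782), and its Control call was lost without sham replicate 1 and without either of IR replicates 2 and 3 (adjusted p between 0.0617 and 0.117) and in a single model of all libraries (0.0684). None of the further IL-1 family ligands, IL-1 receptor family genes or adaptors passed in either genotype.

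**Figure D3:**
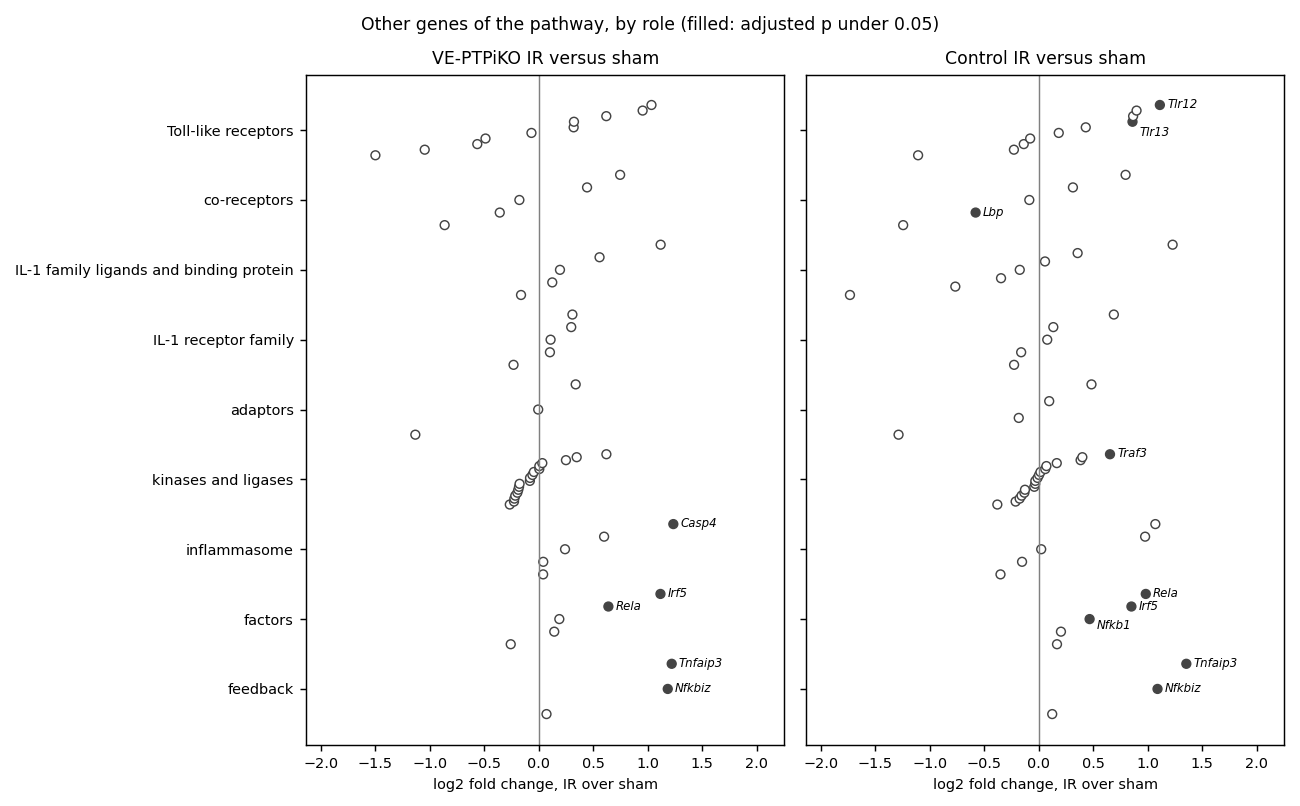
Log2 fold change of IR over sham for the further genes of the pathway, by role, in VE-PTPiKO (left) and Control (right) kidneys; filled and named points have a limma adjusted p under 0.05. The filled points are 5 in VE-PTPiKO and 9 in Control, and Lbp is the one to the left of 0.

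Markers of leukocytes, from lists also chosen with earlier results of these data known, were read beside these genes. Of 11 neutrophil markers, 0 of 11 tested passed in VE-PTPiKO and 0 of 10 in Control. Their fitted changes were above 0 for 8 of 11 in VE-PTPiKO, with a median log2 of 0.38, and for 10 of 10 in Control, with a median of 0.73, where 48.9% and 48.4% of all genes were above 0. S100a8 and S100a9, which encode the calprotectin subunits, were at log2 0.84 (limma adjusted p = 0.298) and 0.87 (0.377) in VE-PTPiKO, and at 1.19 (0.126) and 1.07 (0.187) in Control. The summed level of all 11 neutrophil markers was 211 to 418 normalised reads in VE-PTPiKO IR, 211 to 228 in VE-PTPiKO sham, 220.0 to 686 in Control IR and 134 to 272 in Control sham. The library at 686, Control IR replicate 2, was also the highest of all 12 for Il1b, Il1rn, Il1r2, Tlr4, Ticam1, Il1r1 and Cd14. Without it, 4 of the 10 genes passed in Control: Tlr2, Cd14 (log2 1.04), Ticam1 (log2 0.83) and Il1r1 (log2 0.88). In Control IR replicate 2 S100a9 was the most abundant of the list, at 231 reads, while Ly6g, a defining neutrophil gene, and Camp had at most 3 reads in any library.

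Of 14 monocyte and macrophage markers 1 rose in VE-PTPiKO and 2 in Control, 7.14% and 14.3% beside 1.92% and 7.48% of all genes. The fitted change was above 0 for 11 of the 14 in VE-PTPiKO (median log2 0.34) and for 13 in Control (median log2 0.48). Cd68 rose 5.22-fold in VE-PTPiKO and 5.61-fold in Control, and Lyz2 2.19-fold in Control (adjusted p = 0.0122). The list summed to between 2539 and 3008 normalised reads in VE-PTPiKO IR, 2439.9 and 2504 in VE-PTPiKO sham, 2798 and 2991 in Control IR and 2324 and 2407 in Control sham, so IR lay above sham in both genotypes. Cd68 and Lyz2 carried that separation of the sums: without them, a choice made after their values were seen, the sums were 2092 to 2575 in VE-PTPiKO IR, 2247 to 2282 in VE-PTPiKO sham, 2210.0 to 2503 in Control IR and 2099.8 to 2282 in Control sham, and IR and sham overlapped in both genotypes. Csf1r, at 1049 to 1414 normalised reads per library, weighs heavily in these sums, and genes at low levels weigh little. Of those, Cx3cr1 had all IR libraries above all sham libraries in both genotypes (log2 0.91 in VE-PTPiKO and 1.08 in Control). Ly6c2 and Ms4a7 did so in Control (1.32 and 1.76) and overlapped in VE-PTPiKO (0.45 and 0.75). None of these passed. Csf1r, C1qb, C1qc and Mrc1 had log2 changes between −0.11 and 0.01 in VE-PTPiKO and between −0.10 and 0.21 in Control, with overlapping groups. The rest of the list also overlapped and did not pass. In VE-PTPiKO, Adgre1 was at log2 0.41, Fcgr1 at 0.43, C1qa at 0.28, Itgam at 0.11 and Ccr2 at 0.15. In Control these genes were at 0.61, 0.68, 0.15, 0.36 and 0.16. Ptprc, the general leukocyte gene, overlapped between IR and sham, at 200.2 to 375 in VE-PTPiKO IR, 146 to 274 in VE-PTPiKO sham, 195 to 285 in Control IR and 164 to 218 in Control sham. Of 4 tubule injury markers 3 rose in VE-PTPiKO and 4 in Control, their sums being 2317 to 2793 in VE-PTPiKO IR, 171 to 287 in VE-PTPiKO sham, 2367 to 3120.5 in Control IR and 159 to 230.0 in Control sham. Of 8 endothelial markers 0 passed in VE-PTPiKO and Cdh5 alone rose in Control, 1.49-fold. The part of these cell types in the changes of the 10 genes was not tested.

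**Figure D4:**
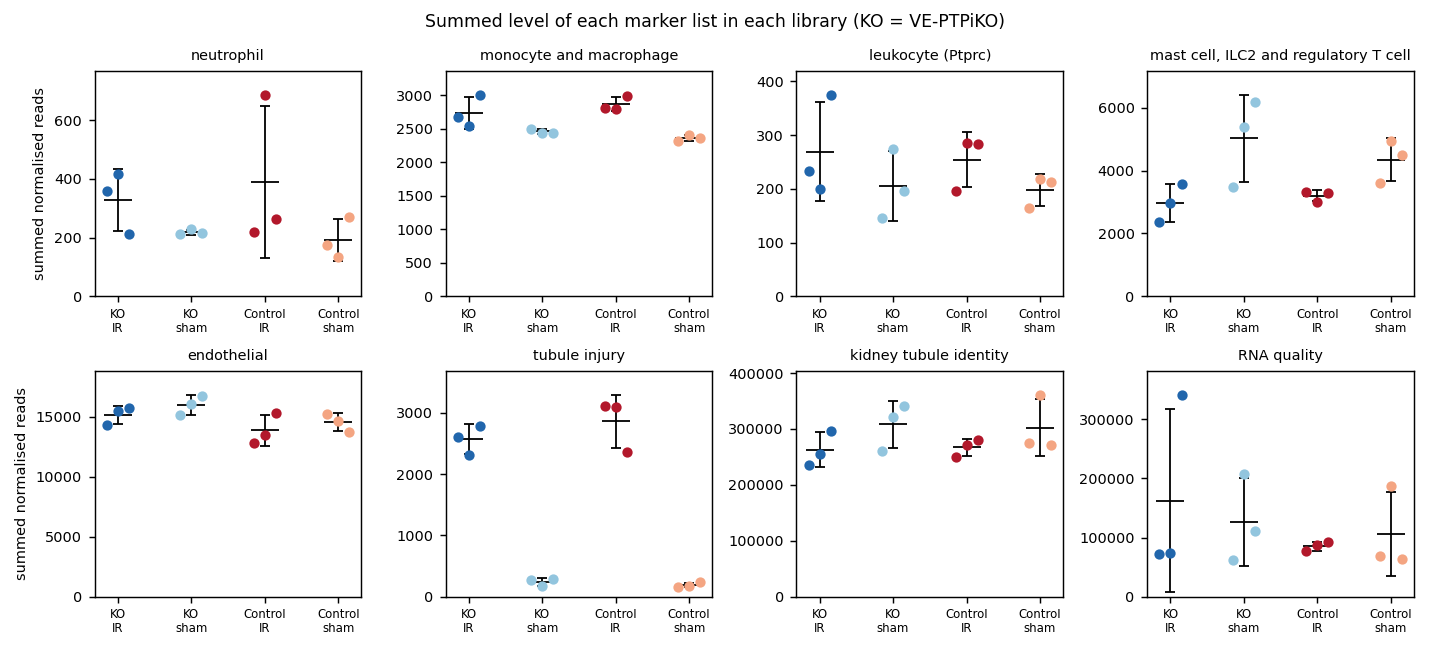
Summed normalised reads of each marker list in each library (points), with group means and SD (lines), for VE-PTPiKO (KO) IR, VE-PTPiKO sham, Control IR and Control sham kidneys; vertical axes start at 0. Neutrophil markers reach 686 in Control IR replicate 2 and stay at or under 418 elsewhere, and tubule injury markers are at 2317 or more in each IR library and at 287 or less in each sham library.

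The genes whose profiles were most like those of the 7 genes that passed were found by the root mean square difference of centred log2 values over the 12 libraries, among 15438 genes. For Ticam1 they were Bhlhe40, Map1s and Plekhg3, at 0.105, 0.106 and 0.111 log2 units, where Ticam1 itself varied by 0.348. For Il1r1 they were Il4ra, Riok1 and Fam83h, at 0.141, 0.148 and 0.149. Cd14 was nearest to Adm, Atf4 and Trim47, at 0.172, 0.182 and 0.185. Il1b was nearest to Cd44, Tpbg and Mboat1, at 0.255, 0.301 and 0.344, and Il1r2 to Tm4sf1, Plscr1 and Gpr39, at 0.232, 0.239 and 0.266. Tlr4 was nearest to Cast, Homer1 and Pdlim5, at 0.0699, 0.0723 and 0.102, and Il1rn, the most variable, to Fpr2, Nppc and Socs3, at 0.549, 0.587 and 0.602. Within the set, Cd14 was at place 26 in nearness to Il1r2, Il1b at place 36 to Il1rn and Ticam1 at place 82 to Il1r1. Counted from the other gene of each pair, Il1r2 was at place 151 to Cd14, Il1rn at 1887 to Il1b and Il1r1 at 194 to Ticam1. Tlr2 was at place 1905 or farther from each of the 7. All these profiles share the libraries and their depth, and the distances carry no test.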

How the data were processed

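Whole-kidney RNA was extracted with Trizol and made into libraries with a TruSeq kit, per the labels' protocols. The authors used FastQC, STAR, HTSeq and DESeq2 with mm10, per the submitters' processing notes (versions not listed); annotation and strandedness are not given in the sources used here. Each deposited library column holds normalised signal: 1 recovered factor per library turned 100.0% of values into whole reads (tolerance 0.02). The deposited log2 fold changes, standard errors and adjusted p-values are the authors' own statistics, per the file headers. Of 23493 lines per table, 182 identifiers were repeated and 23286 genes were kept.

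IR was compared with sham within each genotype's table by limma (version 3.58.1, R 4.3.3) with a mean-variance trend on log2(value + 1), keeping genes whose mean was at least 1, with Benjamini-Hochberg adjustment over all genes tested; a fold change on this scale understates that of low genes. The interaction and both genotype contrasts used the recovered reads of all 12 libraries, scaled jointly (median of ratios, 14828 genes), and a group-means model in limma. Lengths are those of GENCODE's principal transcripts. Alternatives used edgeR 4.0.16, DESeq2 1.42.0, other filters, pseudocounts and normalization, a replicate block, a single model, and leaving out each library. The fits were checked on simulated counts in which 200 genes were changed. Genes with low means were not among those changed and all genes had the same simulated spread. The check therefore does not speak for low genes such as Il1rn and Il1rl1, or for genes with a wide spread.

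The members, the pathway list (64 genes, all in the tables, 4 under an older symbol) and the marker lists (53 genes) were chosen with earlier results of these data known. All members were named, and of the pathway list each gene that passed in either genotype. Few reads limit the precision of low genes such as Il1rn and Il1rl1. The 2 single-cell samples, taken 24 h after injury, were not analysed here.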

Additional observations from a re-analysis of the deposited data

How the results depend on the processing

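Over 934 values of the 10 genes under the alternatives, 857 kept their direction and their side of the threshold, 17 calls were lost, 8 were gained and 52 estimates that passed nowhere changed sign; no value that passed changed sign. In VE-PTPiKO, 1 of the 10 genes passed in the IR comparison; 2 did by DESeq2, 3 in a single model of all libraries, 2 without the 3 libraries highest in Malat1 (chosen after seeing the data), and between 0 and 2 without 1 library, with 0 when any library but IR replicate 3 was left out. By DESeq2 the added gene was Il1b (adjusted p = 0.0272), and in the single model Il1b (0.0347) and Il1rn (0.0279). The count of the pathway list in VE-PTPiKO, 5, lay between 1 and 8 without 1 library: 1 without sham replicate 3, 2 without any other library but IR replicate 3, and 8 without that library. In Control the list's count, 9, lay between 6 and 11 over all alternatives, and its 1 lower gene, Lbp, did not pass with no filter on low values (adjusted p = 0.0629), a pseudocount of 5 (0.0549), the replicate block (0.0719), the single model (0.102) or without any 1 library (0.0552 to 0.179). In Control 7 genes passed, and between 4 and 6 without 1 library, with 4 without IR replicate 2. DESeq2 added Tlr2 in Control (adjusted p = 0.0133), and the single model left out Il1rn (0.0536). Why these calls changed was not tested, and the leave-one-out fits also held fewer libraries. With the replicate number as a replicate block, 1 of the 10 genes passed in VE-PTPiKO and 7 in Control, where Tlr2 passed (adjusted p = 0.00734) and Tlr4 did not (adjusted p = 0.0515); over all genes 604 passed in VE-PTPiKO and 1805 in Control, against 445 and 1870 without it. Samples of the same number did not deviate together throughout (correlations of 0.301, −0.2 and 0.04 in VE-PTPiKO and 0.05, 0.003 and −0.059 in Control). Samples of different numbers ran from −0.397 to 0.358 in VE-PTPiKO and from −0.111 to 0.115 in Control, so the numbers were not taken as pairs. The value of 0.358 was between VE-PTPiKO IR replicate 3 and sham replicate 2, both high in Malat1. No alternative brought any of the 10 genes past the threshold in the interaction or in either genotype contrast. Depth limits Il1rn and Il1rl1, with 0 to 34 reads per library.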
